A study of Mus musculus with 6 samples.

Results

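The mitochondrial ribosome has its own set of protein genes, named Mrpl for the large subunit and Mrps for the small subunit. They were taken here as every protein-coding gene of the deposited table whose symbol starts with Mrpl or Mrps followed by a digit. The rule gave 78 genes of 54532 in all, of which 49 were Mrpl and 29 were Mrps genes. They were followed in naive CD4+ T cells from the spleens of C57BL/6 mice, cultured for 72 h in U-bottom wells. All cultures held beads that engage CD3 and CD28, together with IL-2 and antibodies to IFNγ and IL-4. In 3 libraries the cells had received NETs (neutrophil extracellular traps, webs of DNA, histones and granule proteins shed by neutrophils), and in 3 libraries they had received vehicle instead. For the age of the mice, any pooling of animals and the origin and dose of the NETs, the labels give nothing. It is also not stated whether the 3 replicates of a group are separate mice or separate wells, so the p-values reflect the variation among these libraries alone, and that variation may be technical.

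The mitochondrial ribosome translates the few messages of the mitochondrial genome, which encode core subunits of the respiratory chain and ATP synthase. Its ribosomal RNAs come from the mitochondrial genome, whereas its proteins are encoded in the nucleus, made in the cytosol and imported. Part of these proteins descend from bacterial ribosomal proteins, and the rest are specific to mitochondria. T cells enlarge their mitochondrial mass and their translation capacity when they leave quiescence after stimulation.

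Total counts ranged from 15657622 to 18655997 reads per library, and 77 of the 78 members passed the filter on low counts. T cell markers (Cd3e, Cd3d, Cd3g, Cd4, Trac, Cd28 and Lck) summed to 3415 to 3901 CPM with vehicle and 3382 to 3630 CPM with NETs, where CPM is the read count scaled to the library's total. Markers of CD8 T cells summed to 13 to 20.8 CPM and those of B cells to 11.8 to 18.1 CPM over all 6 libraries. The 4 myeloid markers, of which Lyz2 held most reads, summed to 25.2 to 34.7 CPM with vehicle and 36.3 to 45.3 CPM with NETs. The 7 neutrophil markers summed to 1.55 to 2.75 CPM with vehicle, where 4 of 7 had any read, and 3.9 to 4.55 CPM with NETs, where 6 of 7 had one. Ly6g had no read in any library, and S100a9 had none with vehicle and 0.932 to 1.3 CPM with NETs. The markers of NK cells, dendritic cells and erythroid cells summed to at most 2.16 CPM. The myeloid and neutrophil sums were higher with NETs, as were most members described below. Of the 4 myeloid markers, 3 had a log2 fold change above 0, and Itgam lay at -0.25. Within the groups the order differed from that of the members. Both sums were lowest in vehicle replicate 3 and in NETs replicate 1, where the members on average stood highest of their group. These orders rest on 3 libraries per group, and vehicle replicates 2 and 3 had close myeloid sums (26.1 and 25.2 CPM). The part of such cells in the members' differences was not tested.

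No single member passed the threshold of 0.05 on the adjusted p, yet most lay somewhat higher with NETs. Of the 77 members tested, 67 (87%) had a log2 fold change above 0, against 50.2% of all 13900 genes tested. The median log2 fold change was 0.19 over the members and 0.0012 over all genes tested. The estimates ran from -0.17 for Mrps31 to 0.62 for Mrps28. The smallest adjusted p among the members was 0.223 (edgeR's quasi-likelihood test, Benjamini-Hochberg adjustment over all genes tested). That test called 0 of the members and 0% of all genes. At an unadjusted p under 0.05, 25 members (32.5%) were higher with NETs, against 6.72% of all genes tested, and 0 members were lower, against 6.06% of all genes. In 25 members (32.5%) every NETs library lay above every vehicle library, against 7.68% of all genes. The reverse held for 1 member, Mrps31, against 9.04% of all genes. Against protein-coding genes alone the picture was similar, since 52.9% of those tested had a log2 fold change above 0 and 7.67% were higher at an unadjusted p under 0.05. As in any bulk sample, more RNA per cell and more cells of a type that is rich in these transcripts cannot be told apart.

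**Figure D1:**
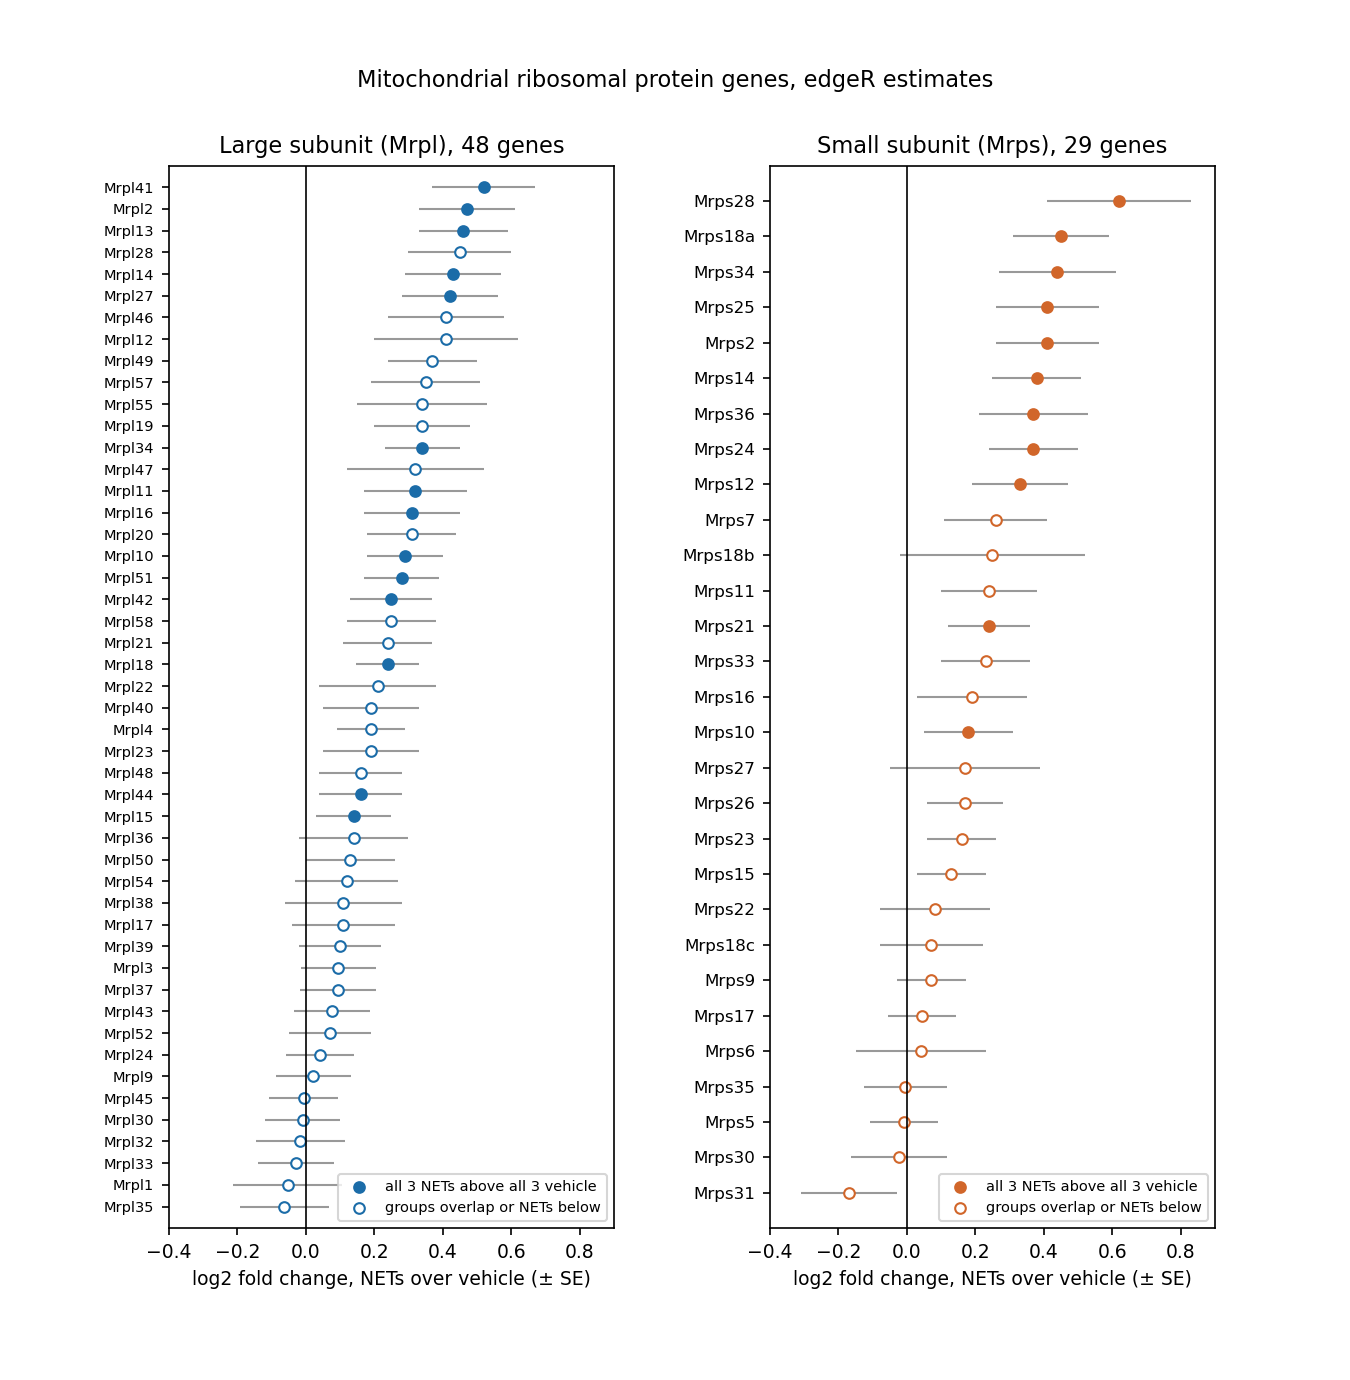
Log2 fold change of NETs over vehicle (x axis, edgeR estimate ± SE) for the 48 tested Mrpl genes on the left and the 29 tested Mrps genes on the right, ordered by size. Filled points mark the members whose 3 NETs libraries all lay above the 3 vehicle libraries, 14 Mrpl and 11 Mrps genes. Most points lie to the right of 0, and the lowest is Mrps31 at -0.17.

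The large and the small subunit were compared next. The 48 tested Mrpl genes had a median log2 fold change of 0.20, with 42 above 0 (87.5%) and 16 higher at an unadjusted p under 0.05 (33.3%). For the 29 Mrps genes the median was 0.19, with 25 above 0 (86.2%) and 9 higher at that p (31%). Over all genes tested the share higher at that p was 6.72%. The difference between the medians, 0.017, was smaller than the pooled SD of that difference between libraries, 0.039. Summed over the Mrpl genes, expression was 1630, 1534 and 1704 CPM with vehicle and 1908, 1796 and 1811 CPM with NETs. The corresponding sums over the Mrps genes were 786.1, 745.1 and 824.1 CPM with vehicle and 909.1, 876.1 and 872.8 CPM with NETs. For both subunits all NETs sums lay above all vehicle sums.

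Library by library, the subunits kept step. A subunit score was taken as the mean log2 CPM of its members minus the vehicle mean. The Mrpl score was -0.0035, -0.087 and 0.091 with vehicle and 0.27, 0.17 and 0.21 with NETs (means 0 and 0.22, SD 0.089 and 0.049, n = 3 each). The Mrps score was -0.019, -0.086 and 0.10 with vehicle and 0.25, 0.19 and 0.19 with NETs (SD 0.10 and 0.037). Vehicle replicate 2 was the lowest and vehicle replicate 3 the highest of the vehicle libraries in both, and NETs replicate 1 was the highest of all 6. The Mrpl score minus the Mrps score stayed between -0.016 and 0.016 in every library. Over the single members, vehicle replicate 2 was the lowest of the 6 libraries for 38 of 77, vehicle replicate 3 the highest vehicle library for 42, and NETs replicate 1 the highest of all 6 for 30.

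**Figure D2:**
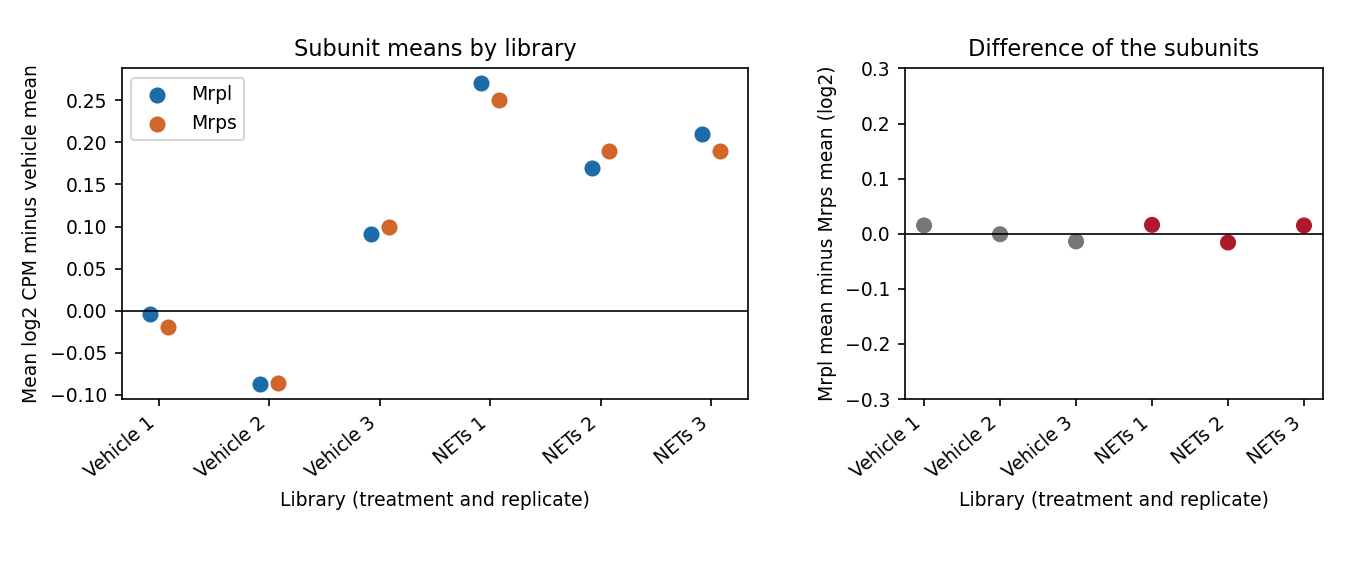
Left, mean log2 CPM minus the vehicle mean (y axis) over the Mrpl genes (blue) and the Mrps genes (orange) in each of the 6 libraries. Right, the Mrpl mean minus the Mrps mean (log2) in the same libraries, which lies between -0.016 and 0.016, grey for vehicle and red for NETs.

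Among large-subunit genes, Mrpl41 had the smallest p. It encodes a mitochondria-specific protein and lies in build GRCm38 on the minus strand of chromosome 2 (chr2:24974117-24975098, ENSMUSG00000036850). Mrpl41 stood at 18.4, 16.9 and 24.4 CPM with vehicle and 28.2, 28.1 and 28.3 CPM with NETs (19.9 ± 3.94 and 28.2 ± 0.118, SD, n = 3 each). The groups did not overlap, and the NETs libraries lay closer together than the vehicle libraries. The log2 fold change was 0.52 with an SE of 0.15, or 1.43-fold, with an adjusted p of 0.223 (edgeR).

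The other large-subunit genes among the 10 members with the smallest p descend from bacterial ribosomal proteins. Mrpl13, on chromosome 15, stood at 33, 31.6 and 44.7 CPM with vehicle and 53.5, 48.1 and 47.2 CPM with NETs, with no overlap between the groups (log2 fold change 0.46, SE 0.13). Mrpl2 encodes the counterpart of bacterial L2, a protein close to the peptidyl transferase centre. Its values were 27.9, 21.7 and 30.1 CPM with vehicle and 38.1, 32.6 and 38.6 CPM with NETs, again apart (0.47, SE 0.14). Both had an adjusted p of 0.223 in the edgeR test. Mrpl34 stood at 38.9, 40.6 and 36.9 CPM with vehicle and at 52.2, 46.9 and 47.6 CPM with NETs. Its spread was small in both groups, with SDs of 1.82 and 2.89 CPM (log2 fold change 0.34, SE 0.11, adjusted p = 0.226, edgeR). Mrpl14 encodes the homologue of bacterial L14 at the subunit interface, where an anti-association factor of assembly docks. It was measured at 24.1, 22.8 and 27 CPM with vehicle and 38, 28.6 and 32.3 CPM with NETs (0.43, SE 0.14), and 11.2% of its exon bases are shared with Tmem63b on the other strand.

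Mrpl28 and Mrpl27 completed the large-subunit genes in this set. Mrpl28 stood at 36.7, 30.1 and 46.9 CPM with vehicle and 59.2, 46 and 49.2 CPM with NETs, so vehicle replicate 3 lay above NETs replicate 2 and the groups overlapped (0.45, SE 0.15, adjusted p = 0.252, edgeR). Mrpl27 is the counterpart of bacterial L27, whose tail reaches towards the peptidyl transferase centre. Its values were 22, 24.7 and 28.2 CPM with vehicle and 32, 29.4 and 38.3 CPM with NETs, without overlap (0.42, SE 0.14, adjusted p = 0.261, edgeR). In 4 of these genes, Mrpl41, Mrpl13, Mrpl2 and Mrpl28, the call depended on 1 library or on the filter. Without vehicle replicate 3 their adjusted p lay between 0.0226 and 0.048 and their log2 fold changes between 0.57 and 0.69, and 2.81% of the genes tested in that fit were called. With no filter on low counts their adjusted p lay between 0.0199 and 0.041, and 1.3% of genes were called. DESeq2 gave an adjusted p to 45 of the 77 members, called 0 of them with a smallest adjusted p of 0.0634, and called 2.39% of the genes to which it gave one.

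Among small-subunit genes, Mrps28 had the highest estimate of all members. It stood at 8.68, 5.81 and 9.45 CPM with vehicle and 14.2, 11.7 and 10.6 CPM with NETs (7.98 ± 1.92 and 12.2 ± 1.85, SD, n = 3 each). The groups did not overlap, and the log2 fold change was 0.62 with an SE of 0.21, or 1.54-fold (adjusted p = 0.267, edgeR). Mrps24, the counterpart of bacterial S3 in the head of the subunit near the entry of the mRNA, was at 23.3, 24.7 and 26.9 CPM with vehicle and 34.7, 28.9 and 32.7 CPM with NETs (0.37, SE 0.13). It shares 15.4% of its exon bases with Urgcp on the same strand. Mrps18a is grouped here by its name, and its protein sits in the large subunit. It was at 22.4, 20.2 and 22.9 CPM with vehicle and 26.8, 27.1 and 34.5 CPM with NETs, with NETs replicate 3 standing above the others (0.45, SE 0.14, adjusted p = 0.231, edgeR).

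**Figure D3:**
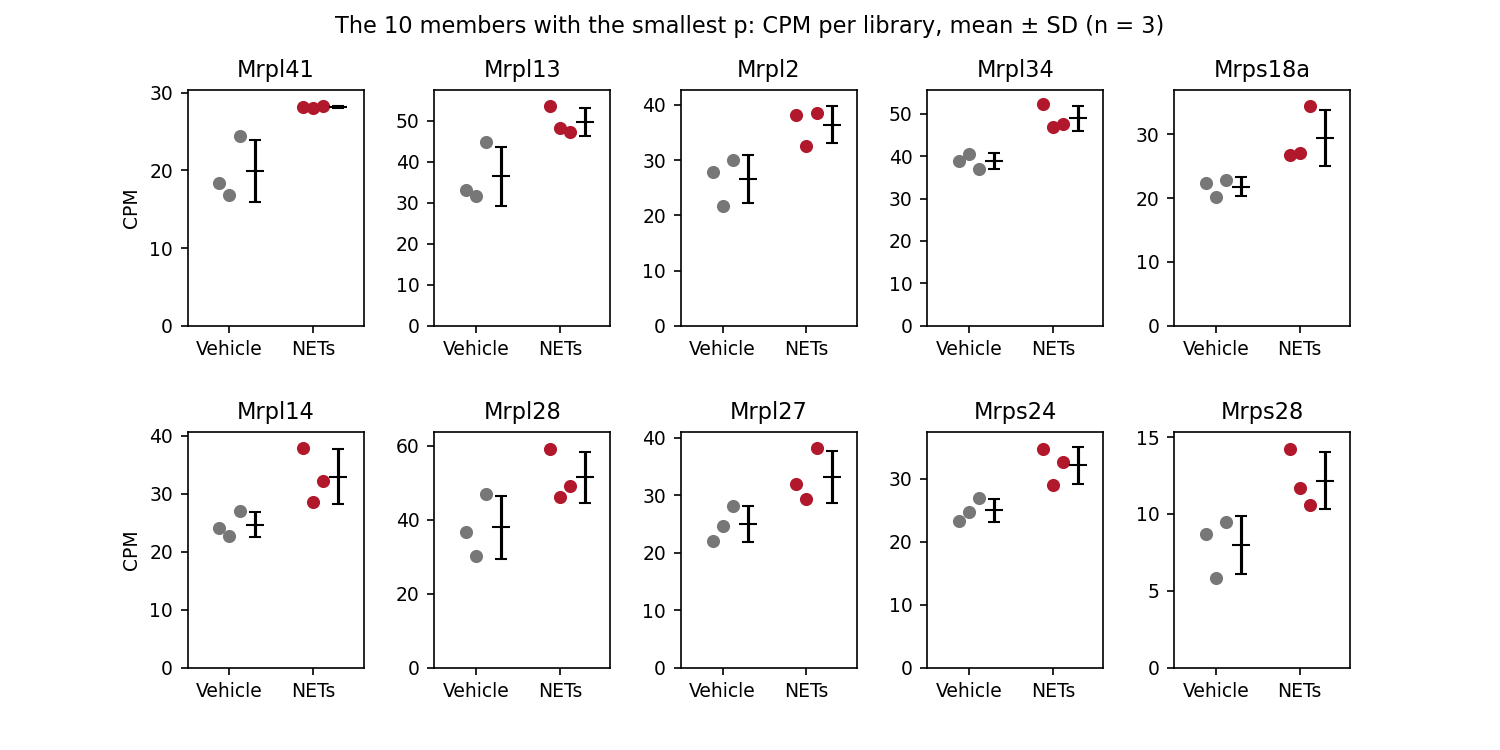
CPM (y axis, from 0) of the 10 members with the smallest p in each of 3 vehicle (grey) and 3 NETs (red) libraries, with the mean ± SD (n = 3) beside each group. The groups are apart in 9 of the 10, and overlap for Mrpl28, where 1 vehicle library at 46.9 CPM exceeds a NETs library at 46 CPM. Choosing genes by p in the same libraries favours such gaps. Of all genes tested, 7.68% had every NETs library above every vehicle library.

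The remaining 15 members with an unadjusted p under 0.05 were Mrps14, Mrps2, Mrpl49, Mrps25, Mrpl10, Mrps34, Mrpl51, Mrpl18, Mrpl19, Mrps12, Mrpl46, Mrps36, Mrpl20, Mrpl57 and Mrpl16. Their log2 fold changes lay between 0.24 for Mrpl18 and 0.44 for Mrps34, and their adjusted p between 0.271 and 0.37 (edgeR). Mrps12, the homologue of a bacterial decoding-centre protein, was at 23.9, 18.1 and 22.3 CPM with vehicle and 27.9, 25.2 and 27.1 CPM with NETs. Mrps36 is also described as a subunit of the oxoglutarate dehydrogenase complex, so it may not count as a ribosomal protein in the strict sense, and its log2 fold change was 0.37 (SE 0.16). Mrps25 and Mrps34 share 69.8% and 63.4% of their exon bases with Nr2c2 and Mapk8ip3 on the other strand, and Mrpl19 shares 36% with Gcfc2 there. All such shares are of the exon bases of every annotated transcript of a gene together. For Mrps25 the 4590 shared bases exceed the 2424 bases behind its FPKM values. No source used here says whether the counting used strand, so reads of these opposite-strand pairs cannot be told apart. Mrps34 also shares 37% with Nme3 on the same strand, where strand would not part the reads, and Nme3 had 0 reads in all libraries. How reads in shared bases were assigned is not stated, so this 0 does not show that Nme3 was silent.

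At the other end, 10 members had estimates below 0, of which the 5 lowest are given here. Mrps31, a protein of the small-subunit head, was at 20.6, 22.2 and 20.6 CPM with vehicle and 16.5, 19.3 and 20.1 CPM with NETs. All its NETs values lay below its vehicle values, and it did not pass the threshold (log2 fold change -0.17, SE 0.14, adjusted p = 0.64, edgeR). Mrpl35 (-0.063), Mrpl1 (-0.053), Mrpl33 (-0.028) and Mrps30 (-0.024) had estimates within 1 SE of 0. Mrpl1, the L1 stalk protein beside the exit site for spent tRNA, was at 24.3, 16.9 and 21.9 CPM with vehicle and 19.7, 23.7 and 17 CPM with NETs, overlapping throughout.

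Grouped by origin, members with a bacterial homologue had a median log2 fold change of 0.24 in each subunit. In the large subunit 25 of 30 of them were above 0 and 11 (36.7%) were higher at an unadjusted p under 0.05. In the small subunit 17 of 18 were above 0 and 6 (33.3%) were higher. Over all genes tested the share higher at that p was 6.72%. The mitochondria-specific members had medians of 0.16 in the large subunit (17 of 18 tested above 0, 5 or 27.8% higher) and 0.17 in the small subunit (8 of 11 above 0, 3 or 27.3% higher). Subunits are taken by name here, so the small-subunit groups include Mrps18a, Mrps30 and Mrps36. None of these groups had a member past the adjusted threshold, and the difference between them was not tested.

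Grouped by place in the particle, the stalk that recruits translation factors was represented by Mrpl10, Mrpl11 and Mrpl12, with a median of 0.32, and its listed member Mrpl53 was not tested. Mrpl10, the stalk base protein that carries the Mrpl12 copies, was at 40.4, 42.6 and 47.8 CPM with vehicle and 54.1, 49.4 and 55 CPM with NETs, apart by a small margin (0.29, SE 0.11, adjusted p = 0.289, edgeR). It shares 14.1% of its exon bases with another gene. Mrpl12, which also binds the mitochondrial RNA polymerase, was at 17.3, 12.5 and 23.2 CPM with vehicle and 29.5, 20 and 20 CPM with NETs, and its groups overlapped (0.41, SE 0.21, adjusted p = 0.445, edgeR). Mrpl11 had a log2 fold change of 0.32 (SE 0.15). The 6 members of the central protuberance all lay above 0, with a median of 0.21. At an unadjusted p under 0.05, 3 of the 6 were higher (Mrpl18, Mrpl27 and Mrpl46), against 6.72% of all genes tested.

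The 8 members around the exit of the nascent chain had a median of 0.14, and 0 of them were at an unadjusted p under 0.05. The share of all genes tested that were higher at that p was 6.72%, so 0 of 8 genes lies near it. Mrpl45 belongs to this group and ties the ribosome to the inner membrane. It was at 122, 98.8 and 121 CPM with vehicle and 112, 125 and 101 CPM with NETs, with the groups overlapping fully (log2 fold change -0.006, SE 0.10, adjusted p = 0.987, edgeR). The 8 members of the small-subunit head had a median of 0.21, with 6 above 0.

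Levels were compared between members per length, as FPKM (reads divided by gene length and library total). Over the tested members the mean FPKM with vehicle ran from 5.48 to 128, a 23.3-fold range, with a median of 24.8. The median was 28.1 FPKM for Mrpl and 19.4 FPKM for Mrps genes. Mrpl18, of the central protuberance, was the highest at 128 ± 3.35 FPKM with vehicle and 150 ± 11.1 FPKM with NETs (SD, n = 3 each). Mrps21 followed at 90.2 ± 11.4 FPKM and Mrpl45 at 78 ± 9.04 FPKM with vehicle, closer to each other than their combined spread. The lowest were Mrpl47 at 5.48 ± 1.06, Mrpl11 at 5.95 ± 0.929 and Mrps30 at 6.72 ± 0.333 FPKM, of which neighbours differed by less than their spread. Mrpl47 shares 24.2% of its exon bases with Actl6a and Ndufb5 and Mrpl18 shares 10.1% with Tcp1, all on the other strand, so their places in this order are uncertain. The order also depends on the length behind each FPKM value, which is 521 bases for Mrpl18. Mrps30 shares 9.35% with B430218F22Rik, which had 0 reads in all libraries, though how reads in shared bases were assigned is not stated. High and low members alike had positive and near-zero differences. Of the high ones, Mrpl18 lay at 0.24 and Mrpl45 at -0.006 on the log2 scale. Of the low ones, Mrpl47 and Mrpl11 both lay at 0.32 and Mrps30 at -0.024.

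**Figure D4:**
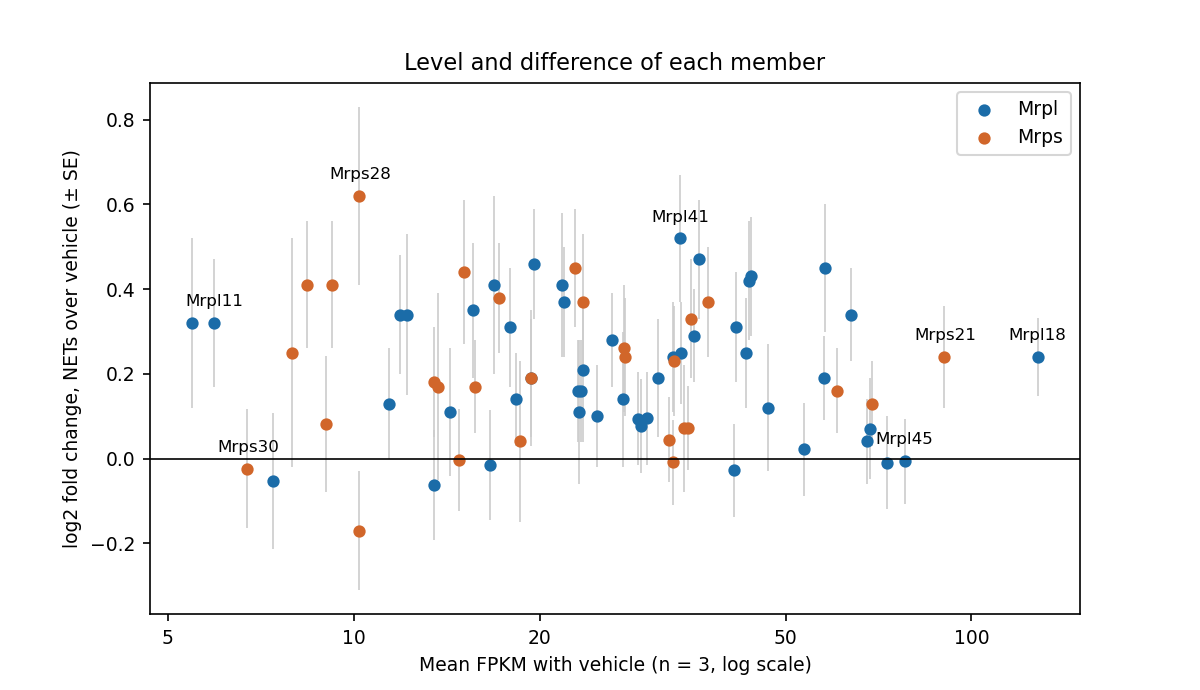
Mean FPKM with vehicle (x axis, log scale, n = 3) against the log2 fold change of NETs over vehicle (y axis, ± SE) for the 77 tested members, Mrpl in blue and Mrps in orange. Mrpl18 at 128 FPKM lies at 0.24 and Mrpl45 at 78 FPKM at -0.006.

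The member that was not tested is Mrpl53, named after its values were seen. It had 1 read in vehicle replicate 1 and 0 in the other libraries, and lies at chr6:83109040-83109939 on the plus strand. Of its exon bases, 88% are shared with Gm42688 on the same strand, which was counted at 41, 28 and 31 reads with vehicle and 21, 10 and 20 reads with NETs. Counts for Mrpl53 therefore say little about its expression. Of all 78 members, 33 share exon bases with another gene of the GENCODE annotation, and 18 share at least 10% of them. Among the 45 tested members that share none, the median log2 fold change was 0.19 and 37 lay above 0. At an unadjusted p under 0.05, 13 of them (28.9%) were higher, against 6.72% of all genes tested.

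The names do not match the structure everywhere, because the proteins of Mrps30 and Mrps18a sit in the large subunit. With these 2 moved, the medians were 0.20 for 50 large-subunit and 0.19 for 27 small-subunit genes. Another 5 subunit proteins carry other names. Dap3, a GTP-binding protein of the small subunit, was nearly level, at 118, 117 and 117 CPM with vehicle and 130, 122 and 115 CPM with NETs (log2 fold change 0.071, SE 0.083, adjusted p = 0.752, edgeR). Chchd1, also of the small subunit, was at 28.4, 25.4 and 30.5 CPM with vehicle and 36.3, 36.2 and 33.2 CPM with NETs, without overlap (0.34, SE 0.12, adjusted p = 0.271, edgeR). Gadd45gip1, of the large subunit, was at 22, 19.2 and 22.5 CPM with vehicle and 26, 27.8 and 24.9 CPM with NETs, again without overlap (0.32, SE 0.13). Aurkaip1 and Ptcd3, of the small subunit, had log2 fold changes of 0.14 and 0.046. Counted by structure with these 5 added, the medians were 0.21 for 51 large-subunit and 0.18 for 31 small-subunit genes.

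The ribosome also needs its RNAs, its assembly factors and its translation factors. The small-subunit RNA mt-Rnr1 was at 224, 270 and 213 CPM with vehicle and 164, 241 and 196 CPM with NETs, with overlapping groups (-0.23, SE 0.13, adjusted p = 0.489, edgeR). The large-subunit RNA mt-Rnr2 was at 436, 484 and 463 CPM with vehicle and 415, 528 and 452 CPM with NETs (0.023, SE 0.094). No source used here says how ribosomal RNA was handled in library preparation. Of 34 tested genes for rRNA processing and assembly, 26 had a log2 fold change above 0, with a median of 0.10. At an unadjusted p under 0.05, 0 were higher and 1 was lower, below the shares of all genes (6.72% and 6.06%).

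That 1 gene was Mettl15, a methyltransferase of the small-subunit RNA, at 10.3, 9.52 and 9.57 CPM with vehicle and 7.16, 8.37 and 6.18 CPM with NETs. Its NETs values all lay below its vehicle values (-0.42, SE 0.20, adjusted p = 0.386, edgeR). Rcc1l and Mpv17l2, both linked to ribosome assembly, had log2 fold changes of 0.38 and 0.29 with SEs of 0.18 and 0.14. The 18 tested translation factors had a median of -0.0029, with 9 above 0 and 1 (5.56%) higher at an unadjusted p under 0.05, no larger a share than the 6.72% of all genes. This was Tsfm, the exchange factor that reloads the elongation factor Tufm, at 17.4, 12.6 and 17 CPM with vehicle and 19.9, 20.7 and 20.6 CPM with NETs (0.39, SE 0.15, adjusted p = 0.313, edgeR). Tufm had a log2 fold change of 0.20 (SE 0.12), and Rmnd1, an inner-membrane protein needed for mitochondrial translation, one of -0.29 (SE 0.16).

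The members have short transcripts, with a median length behind the FPKM values of 1122 bases against 1698 bases over all genes tested. Shorter genes had somewhat higher log2 fold changes in the whole table (Spearman's rho = -0.12 and Pearson's r with log2 length = -0.05 across 13900 genes) and among the members (rho = -0.26 and r = -0.29 across 77 genes). These are descriptions across genes of the same 6 libraries, and genes are not independent replicates. The 33 members under 1000 bases had a median log2 fold change of 0.24 with 32 above 0, and the 44 of at least 1000 bases had a median of 0.16 with 35 above 0. Over all genes tested the medians were 0.053 under 1000 bases and -0.008 from 1000 bases on. With the trend against length over all genes removed by a smooth curve, the members' median was 0.17.

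**Figure D5:**
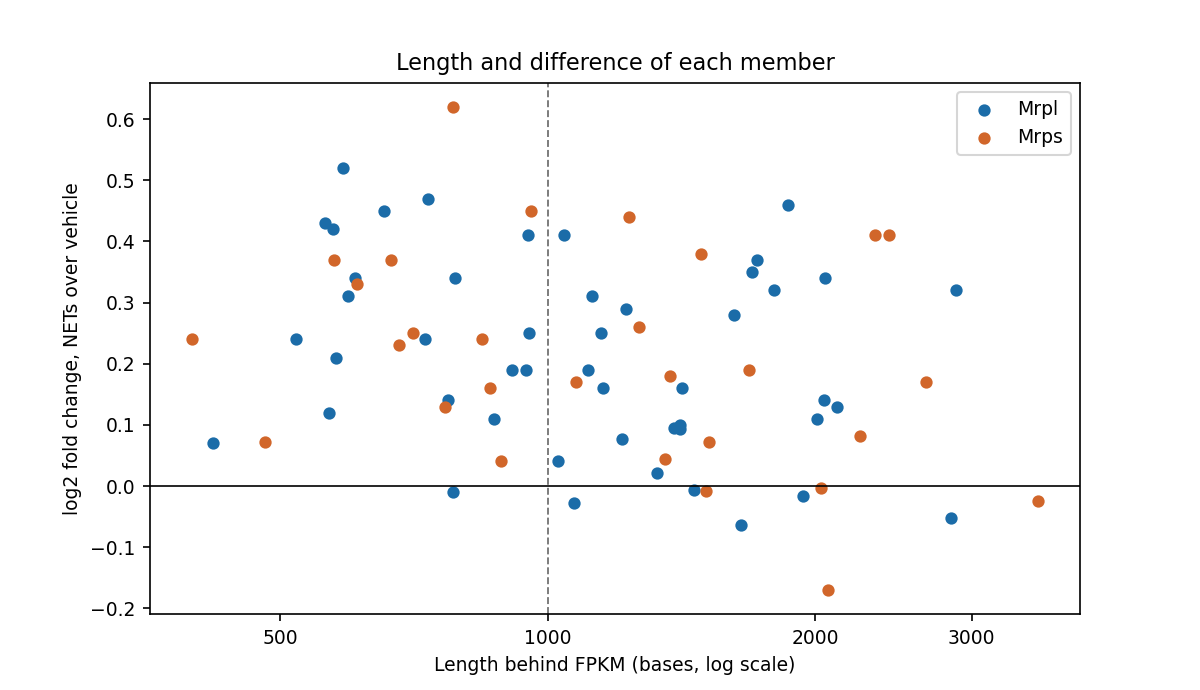
Length behind the FPKM values (x axis, bases, log scale) against the log2 fold change of NETs over vehicle (y axis) for the 77 tested members, Mrpl in blue and Mrps in orange. The dashed line at 1000 bases parts 33 shorter members with a median of 0.24 from 44 longer ones with a median of 0.16.

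Many of these genes start close to a gene on the opposite strand. Distances between starts were taken in either direction, so pairs whose first parts overlap are included. For 33 of the 77 tested members (42.9%) a protein-coding gene on the opposite strand starts within 1000 bases, against 2017 of the 11845 protein-coding genes tested (17%). The 29 tested partners that are not themselves members had a median log2 fold change of 0.065 with 18 above 0, while the members beside a partner had a median of 0.24 and the 44 others 0.19. One pair joins both subunits, since Mrpl46 and Mrps11 start 412 bases apart on opposite strands and share 173 exon bases. Their log2 fold changes were 0.41 (SE 0.17) and 0.24 (SE 0.14). Other pairs differed in sign or size, as for Mrpl41 at 0.52 and its neighbour Pnpla7 at -0.36, or Mrpl36 at 0.14 and Ndufs6, a complex I subunit, at 0.60. The pairs named here were chosen after their values were seen.

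Promoter letters were searched in windows of 300 bases, 250 before and 50 after the RefSeq start, in build GRCm38.p6. Windows were found for 69 of the 78 members, and for 9363 of the tested protein-coding genes. The core of ETS family sites, CCGGAAG on either strand, was present in 26 members (37.7%) against 21% of those genes and 8.86% of all windows in the table. AAGATGGC, the core of YY1 sites, was in 12 members (17.4%) against 5.48% of genes and 2.75% of windows. GCATGCGC, the core of NRF1 sites, was in 8 members (11.6%) against 6.24% of genes and 2.71% of windows. The E-box CACGTG was in 5 members (7.25%) against 11.7% of genes and 7.15% of windows, and CCAAT in 27 (39.1%) against 43.4% and 37.4%. A gene with several start sites counts once if any window holds the letters, and windows of neighbouring starts overlap.

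The log2 fold changes were then set against these letters. Members with the ETS core had a median log2 fold change of 0.21 and those without it 0.19, and the corresponding values were 0.25 and 0.19 for YY1, 0.10 and 0.23 for NRF1, 0.14 and 0.21 for the E-box and 0.17 and 0.23 for CCAAT. The 250 bases before the start are printed for 4 members, as examples with and without the ETS core in those bases. Picked examples cannot decide whether the core goes with the difference, which was not tested. Mrpl34 (chr8:71464676-71464925, plus strand, log2 fold change 0.34) and Mrps22 (chr9:98601680-98601929, minus strand, 0.082) hold the core. Mrpl41 (chr2:24975099-24975348, minus strand, 0.52) and Mrpl45 (chr11:97315466-97315715, plus strand, -0.006) hold none of the ETS, NRF1 and YY1 cores in these 250 bases. The 50 bases after the start, which the search also covered, are not printed. Each sequence runs 5′ to 3′ on the gene's strand, with capitals marking the ETS core, and comes from RefSeq in build GRCm38.p6. Mrps22 was chosen for printing after its values were seen.
Mrpl34: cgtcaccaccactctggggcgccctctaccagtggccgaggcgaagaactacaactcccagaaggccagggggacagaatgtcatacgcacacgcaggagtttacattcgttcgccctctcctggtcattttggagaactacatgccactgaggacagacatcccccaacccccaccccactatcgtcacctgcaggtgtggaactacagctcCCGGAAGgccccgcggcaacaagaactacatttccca
Mrps22: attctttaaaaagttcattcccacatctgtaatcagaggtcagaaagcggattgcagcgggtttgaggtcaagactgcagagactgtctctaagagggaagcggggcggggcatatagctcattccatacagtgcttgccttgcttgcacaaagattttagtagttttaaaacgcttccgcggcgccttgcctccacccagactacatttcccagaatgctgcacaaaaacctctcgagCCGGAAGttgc
Mrpl41: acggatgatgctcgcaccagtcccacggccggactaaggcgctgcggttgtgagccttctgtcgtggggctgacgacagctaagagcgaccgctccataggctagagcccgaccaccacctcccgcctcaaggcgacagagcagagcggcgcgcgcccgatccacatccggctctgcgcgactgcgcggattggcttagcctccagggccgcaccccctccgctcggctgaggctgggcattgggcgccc
Mrpl45: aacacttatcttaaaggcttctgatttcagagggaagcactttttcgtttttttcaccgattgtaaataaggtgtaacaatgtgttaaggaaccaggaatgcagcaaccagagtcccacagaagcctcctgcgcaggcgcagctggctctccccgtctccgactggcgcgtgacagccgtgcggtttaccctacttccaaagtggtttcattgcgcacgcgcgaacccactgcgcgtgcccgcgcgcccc
In Mrpl34 the core starts 37 bases before the start and in Mrps22 11 bases before it. A match is a run of letters and not a bound site, and the files hold no measure of binding.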

How the data were processed

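RNA sequencing was compared between 3 NETs and 3 vehicle libraries, with groups taken from the treatment labels. Raw read counts for each Ensembl gene were deposited by the authors, and FPKM values, which from the values are reads divided by gene length and by the reads counted in genes. STAR, DESeq2 and the build mm9 are named, without tool versions, per the submitters' processing notes. The deposited coordinates are instead those of GRCm38, since 73 of the 78 members have the same start and end in GENCODE M21 on that build. No source used here gives the counting program, its annotation, its use of strand or its filters.

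From the deposited counts, genes kept by filterByExpr (13900 genes, with 0.135% of reads outside them) were scaled by TMM and tested with edgeR 4.0.16 in R 4.3.3. The test was quasi-likelihood with robust dispersion, two-sided, with group as the only term, and p-values were adjusted by Benjamini-Hochberg over all genes tested. The common biological coefficient of variation was 0.134 and the median SE of a log2 fold change 0.146. The test was first tried on simulated data. Per-library CPM uses the total count without the TMM factor, and the mean log2 CPM of a group of members adds a prior count of 2. Alternatives were other scalings and filters, limma 3.58.1 (voom, and trend on log2 FPKM plus 1 or 0.1), DESeq2 1.42.0, a replicate block, removal of the length trend (loess, span 0.3), leaving out each library and other subunit assignments.

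The members and the gene lists were chosen with earlier results of these data known. The genes named were the 10 tested members with the smallest p, the 5 with the lowest log2 fold change, the 3 with the highest and the 3 with the lowest FPKM with vehicle and any past the adjusted threshold. Also named were the 5 subunit proteins with other names, Mrps30, Mrps18a, Mrpl10, Mrpl12, Mrpl45, both mitochondrial rRNAs and the 3 genes with the smallest p among assembly and among translation factors. The motifs, the split at 1000 bases, the neighbour distance of 1000 bases and the set without exon overlap were chosen after seeing the data, as were the other genes named. Lists were matched by symbol, 34 of 40 symbols for assembly and 19 of 20 for translation factors.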

Additional observations from a re-analysis of the deposited data

How the results depend on the processing

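The members' median log2 fold change lay between 0.17 and 0.25 under every alternative tried, and 66 to 70 of the 77 members lay above 0. Scaling moved the median over all genes by less than 0.1. Members past the adjusted threshold in edgeR numbered 0, and 4 (Mrpl41, Mrpl13, Mrpl2 and Mrpl28) with no filter on low counts; leaving out 1 library gave 0 to 4, the highest without vehicle replicate 3. Members at an unadjusted p under 0.05 numbered 12 to 30 when 1 library was left out, against 25 with all libraries. They numbered 12 without NETs replicate 1, 15 without vehicle replicate 1 and 16 without vehicle replicate 2. For these and the other alternative fits, the share of all genes at that p is not given. The counts thus cannot be set against the whole table. Among members that share no exon bases, a set chosen after seeing the data, 13 of 45 had such a p with all libraries. Over all genes the number called was 0 in edgeR, 162 in DESeq2, 2 in limma-trend on FPKM plus 1 and likewise 2 on FPKM plus 0.1, 1 in limma-voom and 322 with no filter. It was 0 to 405 when 1 library was left out, with 405 without vehicle replicate 3, 1 without NETs replicate 1 and 2 without NETs replicate 2. The Mrpl minus Mrps difference of medians ran from -0.014 to 0.061 without 1 library, and was -0.016 with the length trend removed. Of 543 values of named genes under an alternative, 522 kept direction and call, 8 passed the threshold and 13 changed sign. The sign changes were those of Mrpl1, from -0.18 to 0.052 when 1 library was left out, Mrpl33 (-0.085 to 0.045), Mrps30 (-0.14 to 0.092), Mrpl45 (-0.092 to 0.061, and 0.0016 with no filter), Ptcd3 (-0.0031 to 0.09) and mt-Rnr2 (-0.071 to 0.10). Each value of changed sign was smaller than the gene's SE with all libraries, and the cause was not tested. Same-numbered libraries did not deviate together (r = -0.0254, -0.0596 and -0.175), so the numbers are not taken to pair the samples. For vehicle and NETs libraries of different numbers, r ran from -0.179 to 0.223. With 3 libraries per group this check is weak, and a pairing under other numbers was not tested. With the replicate number as a block, 0 members and 0 genes were called, 23 members had an unadjusted p under 0.05, the median was 0.20, 0.21 for Mrpl and 0.20 for Mrps, and with the length trend removed as well 0.17. Mrpl53, with 1 read in all, did not pass the filter on low counts.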
